A study of Arabidopsis thaliana with 6 samples.

Results

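Beta-tubulin pairs with alpha-tubulin to form the subunit of microtubules, the hollow filaments that separate chromosomes at division and, in growing plant cells, line the plasma membrane and guide the enzymes that lay down cellulose. Arabidopsis thaliana encodes beta-tubulin in a small family, TUB1 to TUB9, whose proteins are closely alike and whose genes are used to different extents in different organs. The members were the 9 loci of that family, taken by gene name: TUB1 (AT1G75780), TUB2 (AT5G62690), TUB3 (AT5G62700), TUB4 (AT5G44340), TUB5 (AT1G20010), TUB6 (AT5G12250), TUB7 (AT2G29550), TUB8 (AT5G23860) and TUB9 (AT4G20890).

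Rosettes of Col-0, the standard laboratory accession, were grown under equal periods of light and dark and profiled before flowering on Affymetrix ATH1 arrays, which carry sets of short probes, most of them designed for a single gene. The water deficit group held 3 arrays of plants from which water was withheld at 4 weeks of age until the relative water content was 65%. The watered group held 3 arrays of plants that kept receiving water over the same period. Each array carried RNA of a separate replicate of whole rosettes, so leaf cells of all types were measured together. How many plants made up a replicate was not given in the sources used here.

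Of the 9 beta-tubulin genes, 5 were paired with a probe set, TUB1, TUB5, TUB6, TUB7 and TUB9, out of 14953 genes so paired over the 22810 probe sets of the array. None of the 5 probe sets was listed for another gene, so these 5 members shared none in the annotation used. TUB2, TUB3, TUB4 and TUB8 had no probe set in that annotation and were not analysed here. Of the 22746 non-control probe sets, 8064 had no gene named. Probe sets of these members, shared or not, may be among them, as may those of other genes without one. TUB2 and TUB3 are direct neighbours in the genome, with 0 listed genes between them. All 5 probe sets were tested, since each exceeded the detection floor, a log2 signal of 4.21 set by control probes for bacterial transcripts, on at least 3 of the 6 arrays. Probe sequences were not used here, and binding of transcripts of the other family members to these probe sets was not tested.

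Transcripts of 4 of the 5 measured beta-tubulin genes fell under water deficit relative to the other transcripts on the array, and 2 of the 5, TUB1 and TUB5, also fell with no scaling or spike-in scaling of the arrays. TUB5 and TUB1 had log2 fold changes of -2.98 and -2.16, TUB7 and TUB6 of -1.26 and -1.01, and TUB9 had one of 0.13 that did not pass the test. Over the whole array, 23.0% of the 13703 tested probe sets were lower and 21.8% were higher, 44.9% in all, at a limma p under 0.05 after Benjamini-Hochberg adjustment across the tested set. With no scaling 2.48% of tested probe sets were lower, and with spike-in scaling 3.50%. The median log2 fold change was -1.26 over the 5 beta-tubulin probe sets and 0.04 over all tested probe sets. These are signals from whole rosettes, in which fewer cells of a type and less transcript per cell cannot be told apart.

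**Figure D1:**
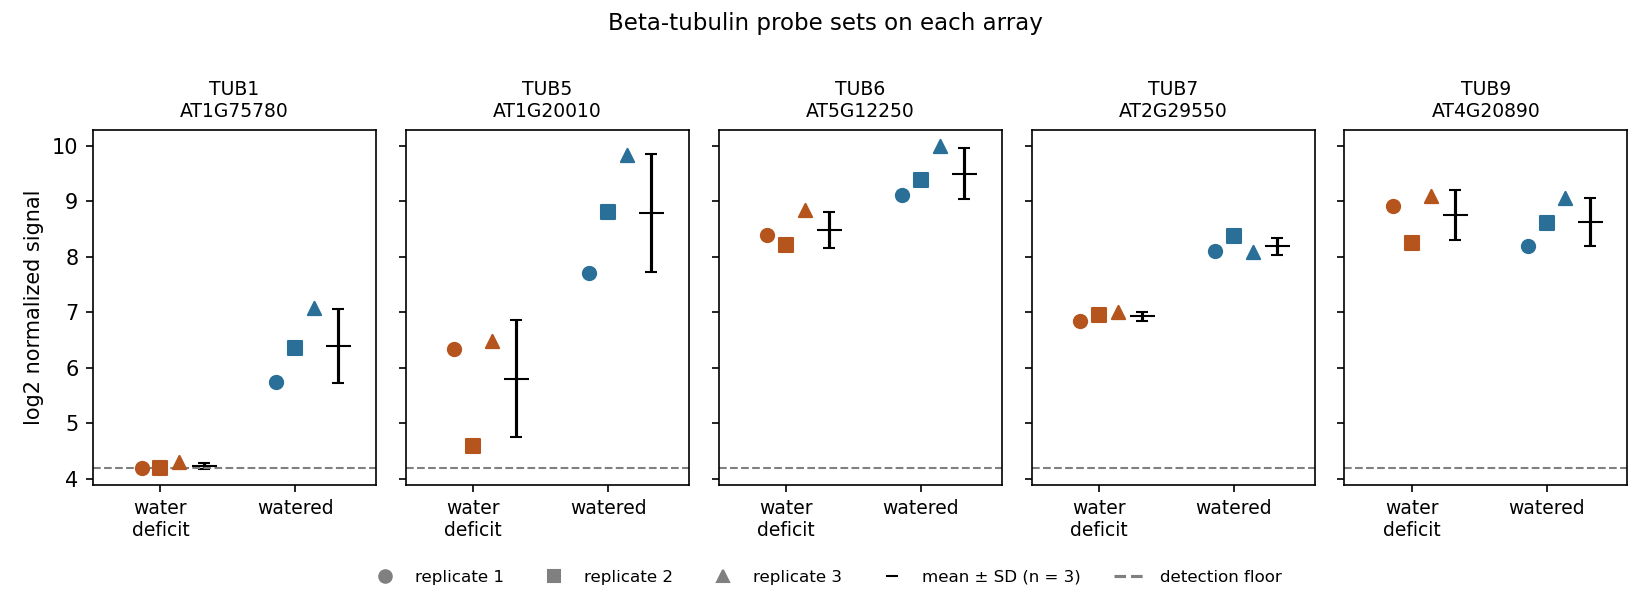
Log2 normalized signal (y axis) of each measured beta-tubulin gene on the 3 water deficit and 3 watered arrays, with marker shape giving the replicate number, the black bar the mean ± SD (n = 3) and the dashed line the detection floor at 4.21. After quantile normalization the groups are apart for TUB1, TUB5, TUB6 and TUB7 and overlap for TUB9; no height is comparable between genes, since each probe set has its own response.

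TUB5 had the largest fitted change of the 5. Its log2 signal was 6.34, 4.59 and 6.48 in water deficit replicates 1, 2 and 3, against 7.71, 8.80 and 9.84 in watered replicates 1, 2 and 3. After quantile normalization the groups did not overlap, and the lowest watered array was 1.23 above the highest water deficit array. Both groups were widely spread, with water deficit replicate 2 far below the other water deficit arrays and close to the floor. TUB5 averaged 5.80 ± 1.05 under water deficit and 8.79 ± 1.06 in watered rosettes (SD, n = 3 each), a 7.91-fold fall (log2 fold change -2.98 ± 0.64, SE; limma adjusted p = 0.00668). Between arrays of the same replicate number the log2 difference was -1.38, -4.21 and -3.36 for replicates 1, 2 and 3. Without water deficit replicate 2 the log2 fold change was -2.38, and without replicate 1 of both groups, the dimmest arrays, it was -3.79. The call was lost with no filter on low values (adjusted p = 0.0821). Of all tested probe sets, 1.29% had a lower log2 fold change than TUB5.

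TUB1 encodes a beta-tubulin isoform whose transcript is known to be lowered by light. Its log2 signal was at the floor of 4.21 in water deficit replicates 1 and 2 and 4.30 in replicate 3, against 5.74, 6.36 and 7.08 in watered replicates 1, 2 and 3. All watered arrays were therefore above every water deficit array, by at least 1.44. The fall was at least 4.45-fold (log2 fold change -2.16 ± 0.32, SE, n = 3 per group; limma adjusted p = 0.00117), a lower bound because signals under the floor were raised to it. In normalized units before the floor the 3 water deficit arrays read 15.0, 7.90 and 19.7, while the watered arrays read 53.5, 82.0 and 135, against a floor of 18.5. TUB1 had 1 water deficit array above the floor and passed the filter through its watered arrays alone, so its p-value rests in part on floored values. With replicate 1 of both groups left out, which lowered the floor, its log2 fold change was -3.01.

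TUB7 changed less in size but with the least spread. Its log2 signal was 6.84, 6.95 and 7.01 in water deficit replicates 1, 2 and 3, against 8.11, 8.37 and 8.09 in watered replicates 1, 2 and 3. Within each group the arrays lay within 0.16 and 0.29 of each other in water deficit and watered rosettes, and 1.08 separated the groups. The signal averaged 6.93 ± 0.08 under water deficit and 8.19 ± 0.16 in watered rosettes (SD, n = 3 each), a 2.39-fold fall (log2 fold change -1.26 ± 0.17, SE; limma adjusted p = 0.000848). The difference between arrays of the same number was -1.27, -1.43 and -1.08. The 95% interval of the fold ran from 1.81 to 3.15. These values are after quantile normalization, and the call was lost with spike-in scaling (adjusted p = 0.499) and no scaling (0.606).

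TUB6 had a log2 signal of 8.40, 8.21 and 8.85 in water deficit replicates 1, 2 and 3, against 9.11, 9.39 and 10.00 in watered replicates 1, 2 and 3. The groups did not overlap, though only 0.26 lay between the highest water deficit array and the lowest watered one. TUB6 averaged 8.49 ± 0.33 under water deficit and 9.50 ± 0.46 in watered rosettes (SD, n = 3 each), a 2.02-fold fall (log2 fold change -1.01 ± 0.28, SE; limma adjusted p = 0.0201). It was lower in 3 of 3 pairs of equal number, by differences of -0.71, -1.18 and -1.15. The call was the least firm of the 4. It was lost without water deficit replicate 1 (adjusted p = 0.0684) or 2 (0.0825), without watered replicate 2 (0.0547), without replicate 1 of both groups (0.0505) and with no filter on low values (0.106), at log2 fold changes between -0.90 and -1.15. The call was also lost at smaller log2 fold changes with spike-in scaling (-0.61, adjusted p = 0.589) and no scaling (-0.57, 0.684).

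TUB9 is the family member best known from pollen. Its log2 signal was 8.92, 8.25 and 9.09 in water deficit replicates 1, 2 and 3, against 8.19, 8.62 and 9.06 in watered replicates 1, 2 and 3. The ranges of the groups covered each other almost wholly. The signal averaged 8.75 ± 0.45 under water deficit and 8.62 ± 0.43 in watered rosettes (SD, n = 3 each), with a log2 fold change of 0.13 ± 0.30 (SE; limma adjusted p = 0.748). The 95% interval of the log2 difference ran from -0.56 to 0.83, so a fall of 1.48-fold and a rise of 1.77-fold both lay inside it. The arrays of equal number disagreed in sign, with log2 differences of 0.73, -0.37 and 0.03. TUB9 was above the floor on all 6 arrays, and the probe set shared by the pollen genes VGD1 and VGDH1, pectin methylesterases of the pollen tube, was at the floor on all 6. Of other genes known from pollen or reproductive organs, ACT12 was at the floor on all 6 arrays, TUA1 was above it on all 6, and ACT11 was above it on 1 water deficit array and 3 watered arrays.

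**Figure D2:**
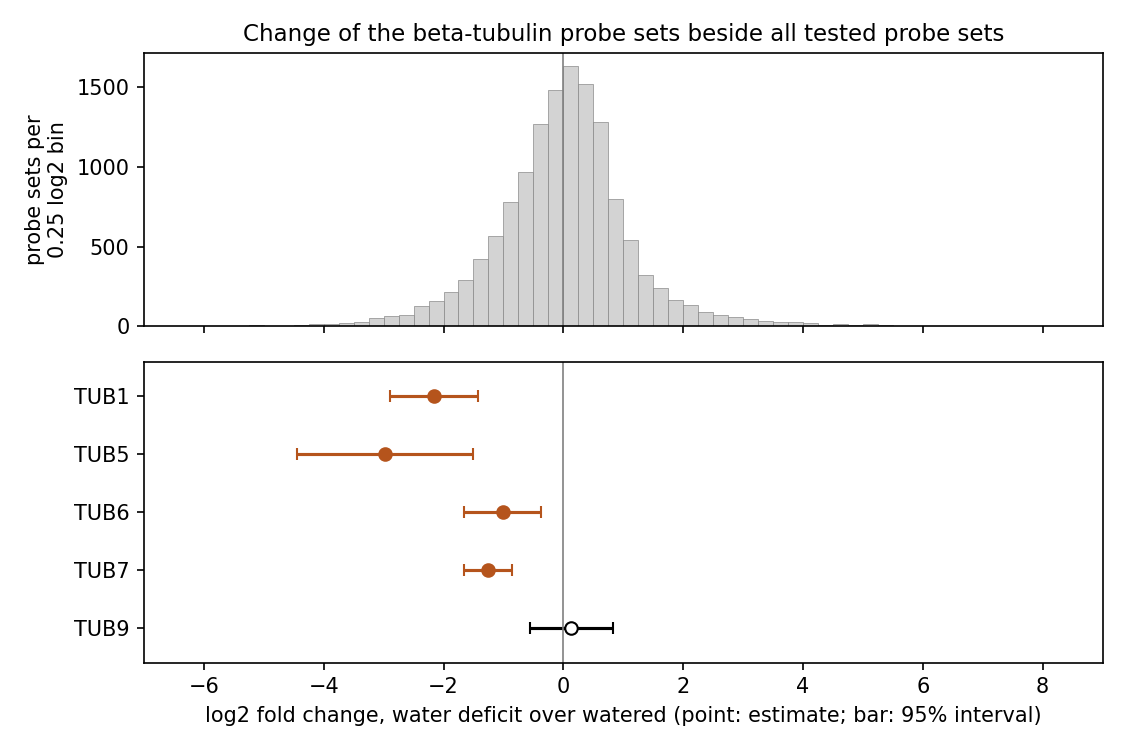
The upper panel counts all 13703 tested probe sets by log2 fold change (x axis, water deficit over watered, bins of 0.25), and the lower panel gives the 5 beta-tubulin probe sets with the 95% interval of the limma fit, filled where the adjusted p was under 0.05. TUB5, TUB1, TUB7 and TUB6 lie left of 0 with their whole intervals after quantile normalization, and the interval of TUB9 spans 0.

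In the tails of the distribution, 3.63% of tested probe sets had a lower log2 fold change than the floor-limited value of TUB1, which may stand lower, 11.1% than TUB7, 15.1% than TUB6 and 54.5% than TUB9. After quantile normalization the groups did not overlap for 4 of the 5 members, all lower under water deficit. Over all tested probe sets, 28.0% were lower and 28.4% higher without overlap, 56.4% in all. The study listed genes with a change of at least 4-fold and p of at most 0.001, from its own ratio model. With these cutoffs put on the limma fold and unadjusted limma p, TUB1 alone of the 5 members passed (unadjusted p = 0.00015). Over the array 4.15% of tested probe sets passed as lower and 4.06% as higher, 8.22% in all. TUB5 had the larger fold and an unadjusted p of 0.00163. Raising water deficit replicates 1 and 2 of TUB1 to the floor narrowed its spread (SD 0.05, against 1.05 for TUB5). The p-values of TUB1 and TUB5 are therefore not on equal terms.

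The members were also compared with each other by the log2 ratio of each pair on the same array, which cancels the brightness of the array. Of the 10 pairs, 8 reached an exact two-sided permutation p of 0.1, the smallest that 3 arrays against 3 can give (0.125 after Benjamini-Hochberg adjustment over the 10 pairs), so no pair could pass a threshold of 0.05. Set against TUB9, the difference in log2 fold change was -3.11 for TUB5, -2.29 for TUB1, -1.39 for TUB7 and -1.14 for TUB6. For the pair TUB5 and TUB6 the difference in log2 fold change was -1.97, and for TUB5 and TUB7 it was -1.73, all arrays of one group being on one side of the other. TUB6 and TUB7 differed in log2 fold change by 0.24 (exact p = 0.6) and TUB1 and TUB5 by 0.83 (exact p = 0.3), and every difference that involves TUB1 was limited by its floor.

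The replicates of a group also differed from each other in a shared way for part of the family. Among watered arrays, replicate 3 had the highest and replicate 1 the lowest signal for TUB1, TUB5, TUB6 and TUB9, over ranges of 1.34, 2.13, 0.90 and 0.87 log2 units. TUB7 stood apart, with replicate 2 highest and a range of 0.29. Among water deficit arrays, replicate 2 was lowest for TUB5, TUB6 and TUB9. Over the 6 arrays Pearson's r was 0.97 between TUB5 and TUB6 and 0.34 between TUB5 and TUB9, values that hold the treatment and the replicate differences together. Replicate 1 was the dimmest array of each group before normalization, and its part in these orders was not tested.

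The genes with the most similar pattern over the 6 arrays were sought among 5963 other genes with a probe set of their own above the floor on every array, which leaves out TUB1. For TUB5 the closest were GASA14 (AT5G14920), a gibberellin-regulated peptide, BGLU44, a beta-glucosidase, and AT3G54790, with Pearson's r of 0.991, 0.990 and 0.987, and 79 genes had an r over 0.95. For TUB7 they were AT4G34265, AT1G66100 and SCPL25, a serine carboxypeptidase-like protein, at r of 0.999, 0.998 and 0.998, and 524 genes were over 0.95. TUB6 ran closest to the cytosolic triose phosphate isomerase TPI (0.995), AT3G19515 (0.993) and AT3G49910 (0.988), whose own changes of -0.30, -0.41 and -0.37 on the log2 scale did not pass the test (limma adjusted p = 0.18, 0.0996 and 0.122). TUB9 was closest to the methionine aminopeptidase MAP1C (0.998), the subtilase SBTI1.1 (0.972) and AT2G40570 (0.969), and 4 genes were over 0.95. All points share the arrays and the treatment, and with 6 arrays such values are descriptions.

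Alpha-tubulin, the partner of beta-tubulin in each subunit, was tested through 3 probe sets for 4 of its 6 genes. Of the 3, 2 fell, where 23.0% of all tested probe sets were lower. A further probe set, which the study's annotation pairs with TUA5 and with 1 gene outside the family, was at the floor on all 6 arrays and was not tested. The probe set shared by the neighbouring genes TUA3 and TUA5 had a log2 signal of 8.59, 7.94 and 8.36 in water deficit replicates 1, 2 and 3, against 10.38, 10.62 and 10.65 in watered replicates. That is a 4.78-fold fall of both genes' transcripts as a sum, which this probe set could not divide between them (log2 fold change -2.26 with an SE of 0.22, n = 3 per group; limma adjusted p = 0.000156). TUA6 fell 2.22-fold, with 9.67, 8.94 and 9.50 in water deficit replicates against 10.43, 10.36 and 10.78 in watered ones (limma adjusted p = 0.00611). TUA1, known mainly from pollen, had 7.47, 7.51 and 7.34 under water deficit and 7.77, 7.41 and 7.49 in watered rosettes, ranges that overlapped (log2 fold change -0.12 ± 0.18, SE; limma adjusted p = 0.628). With spike-in scaling TUA6 was not called and TUA1 had a log2 fold change of 0.41, and with no scaling the TUA3 and TUA5 probe set was not called either (-1.90, adjusted p = 0.0692).

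**Figure D3:**
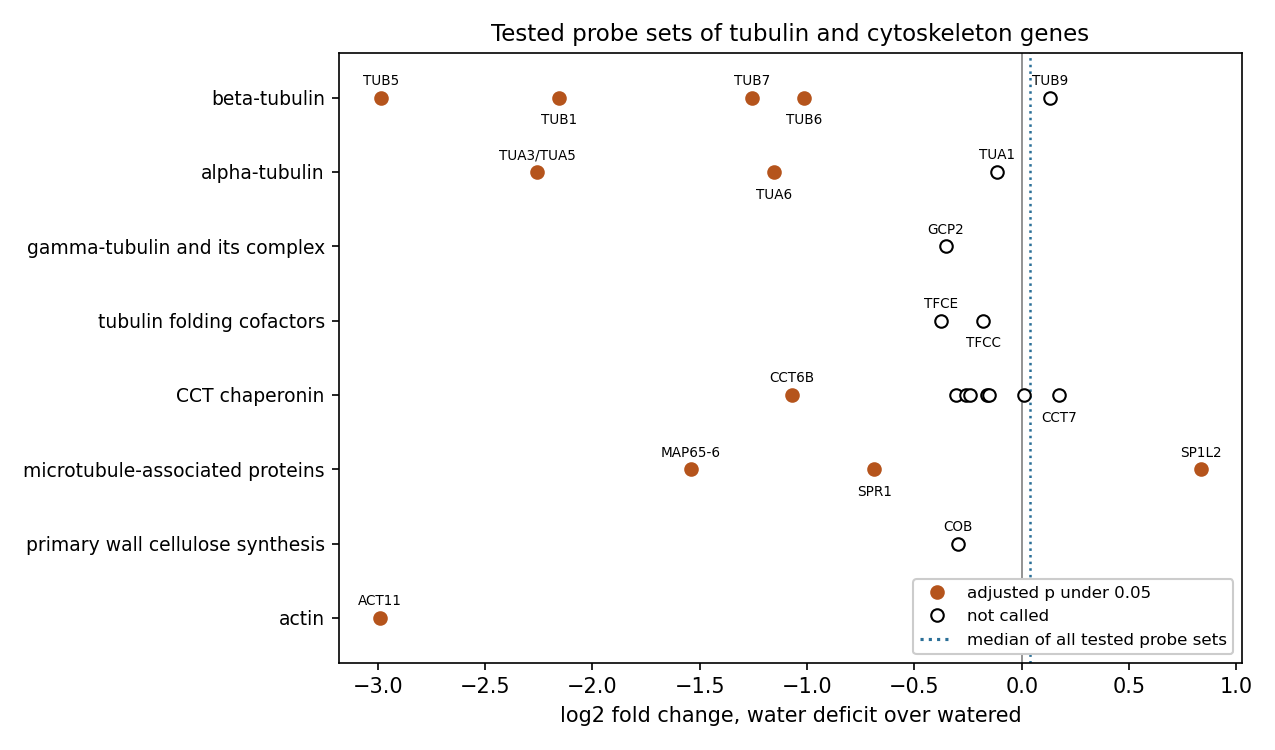
Log2 fold change (x axis, water deficit over watered) of every tested probe set in the tubulin, folding, microtubule, cellulose and actin lists (rows), filled where the limma adjusted p was under 0.05, with the median of all tested probe sets (0.04) dotted. After quantile normalization the 4 beta-tubulin and 2 alpha-tubulin calls lie at or below -1.01, while 7 of the 8 CCT subunits lie between -0.31 and 0.17 and were not called, of which CCT7 alone is labelled. Over the array 7557 of 13703 tested probe sets were not called.

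Newly made tubulin is folded by the cytosolic chaperonin CCT and then assembled into dimers by a set of tubulin folding cofactors. Of 8 measured CCT subunit genes 1 was lower and 7 were not called, with a median log2 fold change of -0.20. Over the array, 23.0% of tested probe sets were lower and 7557 of 13703 were not called. CCT6B fell 2.10-fold, with a log2 signal of 6.07, 6.80 and 6.97 in water deficit replicates 1, 2 and 3, against 7.39, 7.78 and 7.88 in watered replicates (limma adjusted p = 0.0142, and 0.0579 without watered replicate 2). It was not called on the spike-in scale (0.649) or unscaled (0.734). Its sister gene CCT6A was at -0.26 on the log2 scale (limma adjusted p = 0.491), and CCT3 had the change of smallest size in the list, 0.01. Both measured cofactor genes, TFCC (also PORCINO) and TFCE (PFIFFERLING), had small changes of -0.18 and -0.38 that did not pass the test (limma adjusted p = 0.462 and 0.108). GCP2, a subunit of the gamma-tubulin complex that starts new microtubules, had one of -0.35 with 2 arrays of each group above the floor (limma adjusted p = 0.385). None of the 6 prefoldin genes, which hand tubulin to CCT, was paired with a probe set.

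Proteins that bind microtubules were measured through 3 tested probe sets of 24 listed genes. MAP65-6, of the family that bundles microtubules, fell 2.91-fold, with log2 signals of 5.63, 5.29 and 5.10 in water deficit replicates and 6.98, 6.93 and 6.73 in watered ones (limma adjusted p = 0.000622). SPR1, a small protein at growing microtubule ends that keeps cell elongation straight, fell 1.61-fold (limma adjusted p = 0.0218). Its call was lost without water deficit replicate 2 (0.0774) or 3 (0.0528) or watered replicate 3 (0.0596). SP1L2, a relative of SPR1, rose at least 1.78-fold, with 5.05, 5.05 and 5.23 under water deficit against the floor on 2 watered arrays and 4.41 on the other (limma adjusted p = 0.00536), and the water deficit arrays alone carried it past the filter. MAP70-5 was at the floor on all 6 arrays. None of MAP65-6, SPR1 and SP1L2 was called with spike-in scaling (0.334, 0.825 and 0.174) or no scaling (0.455, 0.882 and 0.299). COB, which orients cellulose microfibrils along with microtubules and was the only measured gene of the primary wall cellulose list, was at -0.30 on the log2 scale (limma adjusted p = 0.233).

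Of the actin genes, which form the other main filament of the plant cell, only ACT11 was tested. Of the 8 listed, 6 had no probe set in the annotation used, and ACT12 was at the floor. ACT11 read 4.21, 4.21 and 4.22 under water deficit, at or next to the floor. Its watered replicates 1, 2 and 3 read 7.93, 7.76 and 5.91. The fall was at least 7.93-fold after quantile normalization (log2 fold change -2.99, limma adjusted p = 0.0019). ACT11 passed the filter through its watered arrays alone, so its p-value rests in part on floored values. Without watered replicate 3 the log2 fold change was -3.66, and it was -2.70 on the spike-in scale and -2.66 unscaled. Watered replicate 3, the highest watered array for TUB1, TUB5, TUB6 and TUB9, was the lowest for ACT11.

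Markers of cell types in the rosette moved with the groups in part, and their part in the beta-tubulin values was not tested. Their values are after quantile normalization, and the markers were not run with any other scaling, floor, filter or set of arrays. The 2 measured mesophyll markers, RCA and LHCB4.1, had log2 fold changes of -0.82 and -0.97 (limma adjusted p = 0.0282 and 0.00348), with a summed normalized signal of 6568 to 10291 under water deficit and 14073 to 16385 in watered rosettes. Of 2 measured markers of dividing cells, which need microtubules for the spindle, AUR1, a mitotic kinase, fell at least 2.04-fold (limma adjusted p = 0.00251). AUR1 was above the floor on 1 water deficit array and passed the filter through its watered arrays alone. Its p-value therefore rests in part on floored values. CYCA1;1, a mitotic cyclin, was at -0.55 on the log2 scale (limma adjusted p = 0.136). Their summed normalized signal was 36.9 to 38.8 under water deficit, where 2 probe sets at the floor give 36.9, and 50.7 to 79.5 in watered rosettes. FAMA, of the guard cell lineage, gave 35.0 to 41.8 under water deficit and 48.6 to 51.6 in watered rosettes (a log2 difference of -0.38, limma adjusted p = 0.103). CESA7, of secondary walls in xylem, gave 26.6 to 40.3 under water deficit and 18.5 to 29.6 in watered rosettes (0.54, limma adjusted p = 0.124). The pollen list had its only probe set at the floor throughout, and none of the 4 root markers was paired with a probe set.

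The arrays were not of equal brightness as deposited, with medians of 18.9 to 51.6 under water deficit and 12.6 to 38.2 in watered rosettes, so the values depended on how arrays were brought to a common level. The median over tested probe sets stood at 0.51 on the log2 scale with no scaling and at 0.48 with scaling on the spike-in controls, against 0.04 after quantile normalization. TUB1 and TUB5 were still lower in both settings, with log2 fold changes of -2.03 and -2.47 with no scaling (limma adjusted p = 0.0465 and 0.00877) and -2.07 and -2.51 on the spike-in scale (0.0156 and 0.00185). TUB7 and TUB6 were not called there, at -0.70 and -0.57 with no scaling (0.606 and 0.684) and -0.74 and -0.61 with spike-in scaling (0.499 and 0.589). In the values as deposited the groups overlapped for TUB1, TUB5, TUB6 and TUB7. Watered replicate 1 read 78.2 for TUB5 and 19.9 for TUB1, below water deficit replicate 3 at 125.8 and 26.2. For TUB6 it read 224, below water deficit replicate 3 at 633. For TUB7 it read 106, below water deficit replicate 2 at 203. Taken relative to the median of all tested probe sets, TUB7 stood at -1.21 and -1.22 and TUB6 at -1.08 and -1.09 with no scaling and spike-in scaling, against -1.30 and -1.05 after quantile normalization. The falls of TUB6 and TUB7 are therefore falls relative to the other transcripts on the array, and a fall in unscaled signal was not detectable with these arrays.

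**Figure D4:**
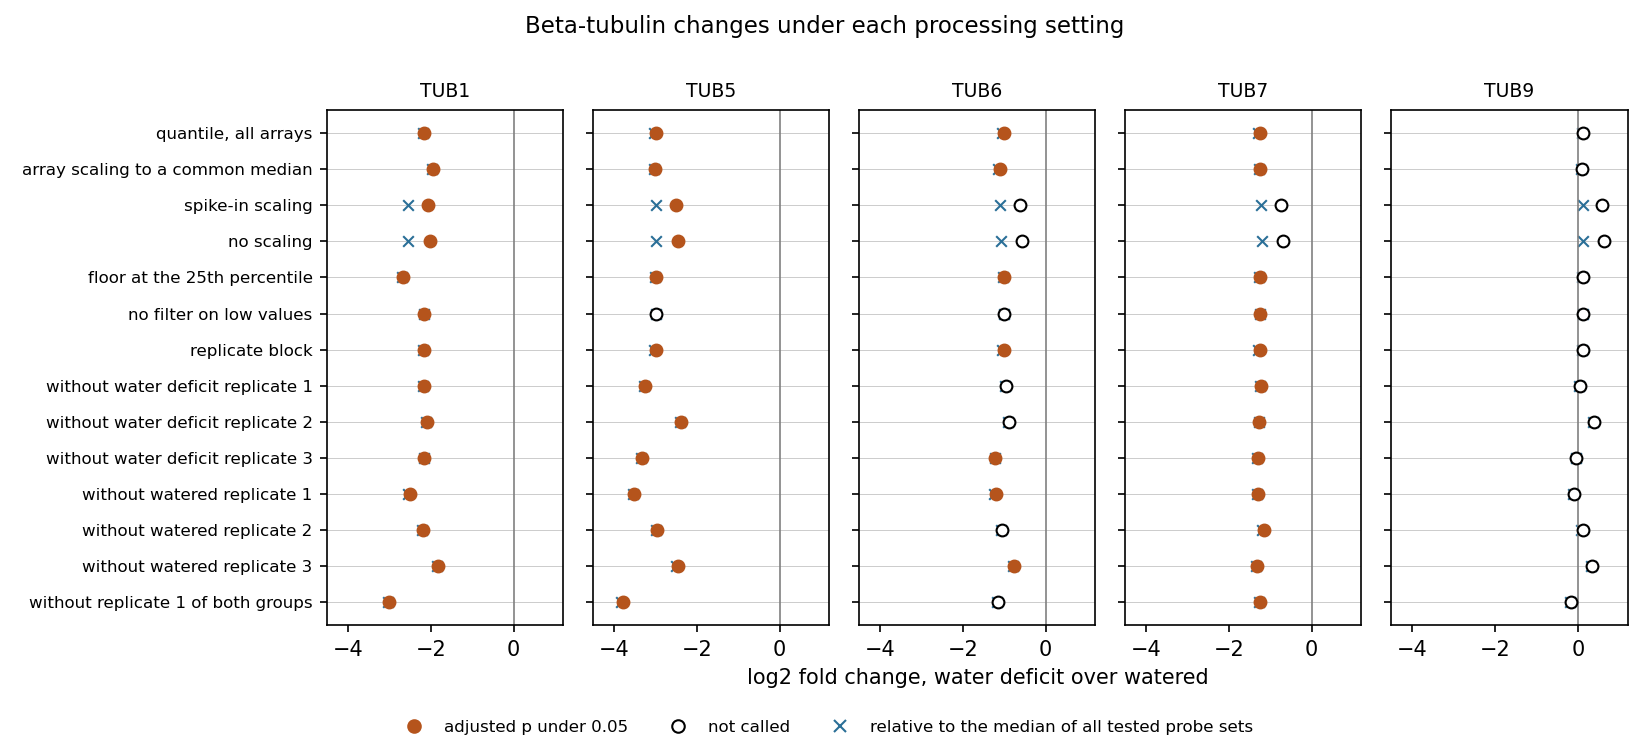
Log2 fold change (x axis, water deficit over watered) of each beta-tubulin gene under each processing setting (rows), filled where the limma adjusted p was under 0.05, with crosses giving the value relative to the median of all tested probe sets. TUB1 is filled in every row, TUB6 and TUB7 move toward 0 with spike-in scaling and no scaling while their crosses stay near -1.1 and -1.2, and TUB9 lies between -0.17 and 0.64.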

How the data were processed

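The members and gene lists were chosen with earlier results of these data known. The study's methods name Affymetrix operating software for the signals and Rosetta Resolver 6.0 for background correction. The values deposited by the authors were linear intensity per probe set, unequal in level between arrays, with 13.2% to 17.8% at or below 0. No coordinates are given because the files name no genome build.

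Values of all 22810 probe sets, controls included, were quantile normalized (limma 3.58.1, R 4.3.3). They were raised to a floor of 18.5, set by 27 Bacillus control probe sets, and converted to log2. Of the 22746 non-control probe sets, 13703 were above the floor on at least 3 of 6 arrays. These were tested with lmFit and eBayes, two-sided, with group as the only term, at a Benjamini-Hochberg adjusted p under 0.05. Folds are bounds where an array of the lower group was at the floor. Spearman correlations between arrays were 0.905 to 0.970 within groups and 0.828 to 0.887 between groups. The fit was also run on simulated data, drawn with no floor and no brightness differences between arrays. That run does not bear on calls that rest on floored values or on the scaling. The series text calls the replicates biological, and p-values measure the spread between these 6 arrays, whose number limits the precision.

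Deviations from the group means correlated at 0.29, 0.23 and 0.39 between arrays numbered 1, 2 and 3 in the titles, against -0.38 to 0.03 for other pairs, and arrays of equal number were treated as pairs in the blocked alternative. Names came from the platform table through an NCBI gene table (1 gene for 13513 probe sets, several for 503) and, for 666 more, from the name column of a study table held in part, which placed MAP70-5, CYCA1;1 and CESA7. The study's own ratios and p-values were not used. The rule named all 9 members, the called genes of each other list, up to 4 a direction, and the one with the smallest change. Alternatives were the scaling, floor, filter, call rule, a replicate block and leaving out each array. Protein and promoter sequences were not used here.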

Additional observations from a re-analysis of the deposited data

How the results depend on the processing

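TUB1 kept its direction and its call under all 13 alternatives that changed its fit. Spike-in scaling left TUB6 (-0.61) and TUB7 (-0.74) uncalled, with 2 beta-tubulin, 1 alpha-tubulin, 0 CCT and 0 microtubule-associated probe sets lower and 0 of the last list higher. Over the array 525 of 14999 tested probe sets (3.50%) were then lower and 1344 higher. The log2 fold change turned positive for TUA1 (0.41), GCP2 (0.057), TFCC (0.35), TFCE (0.14), CCT2 (0.19), CCT4 (0.35), CCT5 (0.30), CCT6A (0.26) and CCT8 (0.18). No scaling left TUB6 (-0.57) and TUB7 (-0.70) uncalled, with 2 beta-tubulin, 0 alpha-tubulin, 0 CCT and 0 microtubule-associated probe sets lower and 0 of the last list higher. Over the array 370 of 14915 tested probe sets (2.48%) were then lower and 1030 higher. No scaling turned TUA1 (0.46), TFCC (0.39), TFCE (0.18), CCT2 (0.24), CCT4 (0.39), CCT5 (0.34), CCT6A (0.30), CCT8 (0.23) and COB (5.19e-05) positive. Both settings leave the unequal brightness of the arrays in the spread, and the cause of the lost calls was not tested.

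With no filter on low values TUB5 (-2.98, limma adjusted p = 0.0821) and TUB6 (-1.01, 0.106) were not called. In that setting 2 beta-tubulin and 0 CCT probe sets were lower, where 10.2% of 22746 probe sets were lower over the array. A floor at the 25th percentile left 1 microtubule-associated probe set lower, where 16.4% of 17649 tested probe sets were lower. At the study's cutoffs put on the limma fit, 4-fold with an unadjusted p up to 0.001, 1 beta-tubulin, 1 alpha-tubulin, 0 CCT and 0 microtubule-associated probe sets were lower, 0 of the last list higher, and 569 were lower and 557 higher over the array. CCT3 turned to -0.014 with scaling to a common median. Over the brighter arrays, an alternative chosen after seeing the data, TUB6 (-1.15) was not called, and TUB9 (-0.17) and CCT3 (-0.051) changed sign. Leaving out single arrays gave log2 fold changes of -2.51 to -1.83 for TUB1, -3.51 to -2.38 for TUB5, -1.21 to -0.76 for TUB6, -1.31 to -1.16 for TUB7, -0.084 to 0.39 for TUB9, -0.085 to 0.097 for CCT3 and -0.44 to 0.016 for CCT6A. TUB9 changed sign without water deficit replicate 3 or watered replicate 1. The number lower was 0 to 1 for CCT and 1 to 2 for microtubule-associated proteins, where 16.9% to 21.9% of tested probe sets were lower. With the replicate block, which pairs arrays of equal number, no call on a tubulin or on a named gene of the folding, microtubule, cellulose and actin lists changed (the cell type markers were not run), TUB6 had an adjusted p of 0.00541, and 7012 probe sets were called, against 6146.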
